A study of Homo sapiens with 8 samples.

Results

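The 8 genes described here make or regulate cholesterol and fatty acids: HMGCS1, FDFT1, SQLE, SREBF1, SREBF2, INSIG1, FASN and SCD. They were chosen by name, as genes where Sp1 is known to act together with the sterol regulatory element-binding proteins (SREBPs), out of 19970 protein-coding genes on the autosomes and X in GENCODE release 44. A peak was assigned to a gene when its summit lay inside the gene or within 5 kb of either end. This gave 21 peaks: 7 of the 8706 peaks of Sp1 antibody 1, 2 of the 5973 of Sp1 antibody 2, 8 of the 42765 of CTCF replicate 1 and 4 of the 36082 of CTCF replicate 2. None of the 106 peaks of the IgG control fell in these windows, 0 of 8 genes against 0.0801% of all protein-coding genes. On hg38 the genes lie at chr5:43287470-43313512 (HMGCS1, minus strand), chr17:17810399-17837002 (SREBF1, minus), chr22:41833105-41907306 (SREBF2, plus), chr17:82078338-82098294 (FASN, minus), chr8:124998497-125022283 (SQLE, plus), chr7:155297776-155310235 (INSIG1, plus), chr8:11795573-11839395 (FDFT1, plus) and chr10:100347233-100364826 (SCD, plus). Their median length of 24.9 kb was close to the 27.5 kb of all protein-coding genes, which matters because a longer gene has more room for a peak. Their number of annotated start sites ran from 1 at SCD to 24 at SREBF1 and was not compared with all genes.

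The data are chromatin immunoprecipitation with sequencing (ChIP-seq) from U-2 OS, a human osteosarcoma line, crosslinked for 6 min in 1% formaldehyde. Sp1 was pulled down with a different rabbit antibody in each of 2 libraries, and normal rabbit IgG in another, all from cells carrying a V5-Halo tag knocked into the endogenous SP1 gene. CTCF was pulled down in 2 replicate libraries from clone C32, per the labels. In the study's methods C32 is a clone with a FLAG-Halo tag knocked into CTCF. The series description names wild-type cells for this arm, and a supplementary legend of the study the tagged Sp1 line. The other 3 of the 8 libraries are inputs, whose signal was not used here. If the labels hold, each target came from its own line, and target and line cannot be told apart. Each Sp1 antibody and the IgG have 1 library, so no difference between them has a replicate check, and no p-value was computed. The lists carry no read depth. ChIP recovers protein on DNA and says nothing on whether a gene was transcribed.

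Sp1 is a zinc finger activator that binds GC boxes in many promoters, while CTCF is a zinc finger protein that shapes chromatin loops together with cohesin. When sterols are low, SREBPs are cut free from membranes and enter the nucleus, where they switch on sterol and fatty acid genes, and they need partners such as Sp1 or NF-Y at nearby GC and CCAAT boxes. INSIG1 holds the SREBP precursor in the endoplasmic reticulum when sterols are plentiful.

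Promoter sequence is shown for the 5 genes with an entry among the RefSeq promoters, since the letters that Sp1 and its partners read can be set beside the peaks: HMGCS1, SREBF1, SREBF2, INSIG1 and SCD. FASN, SQLE and FDFT1 have none. Each run is the part of the 250 bases before the RefSeq start site that lies before the first annotated exon of the gene, 5′ to 3′ along the gene (GRCh38.p14). Capitals mark the GC box GGGCGG, the CCAAT box CCAAT, the E-box CACGTG and the sterol element TCACNCCAC on either strand, so that CCGCCC and ATTGG are the same boxes read from the other strand. The runs are chr5:43313513-43313662 (HMGCS1, minus strand), chr22:41832855-41833104 (SREBF2, plus), chr17:17837003-17837236 (SREBF1, minus), chr7:155297628-155297775 (INSIG1, plus) and chr10:100346983-100347232 (SCD, plus).
HMGCS1: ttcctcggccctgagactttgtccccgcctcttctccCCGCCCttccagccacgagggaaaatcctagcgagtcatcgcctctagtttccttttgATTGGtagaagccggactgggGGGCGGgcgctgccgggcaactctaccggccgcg
SREBF2: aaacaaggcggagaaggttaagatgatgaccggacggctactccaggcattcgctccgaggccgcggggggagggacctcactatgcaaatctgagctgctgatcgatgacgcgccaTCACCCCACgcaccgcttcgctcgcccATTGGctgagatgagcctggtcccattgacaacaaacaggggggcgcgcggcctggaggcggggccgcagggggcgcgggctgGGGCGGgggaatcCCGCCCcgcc
SREBF1: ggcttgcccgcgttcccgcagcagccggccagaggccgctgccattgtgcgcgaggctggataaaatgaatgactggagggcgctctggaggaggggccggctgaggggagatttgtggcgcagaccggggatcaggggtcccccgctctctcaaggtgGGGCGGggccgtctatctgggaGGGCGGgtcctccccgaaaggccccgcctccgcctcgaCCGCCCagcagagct
INSIG1: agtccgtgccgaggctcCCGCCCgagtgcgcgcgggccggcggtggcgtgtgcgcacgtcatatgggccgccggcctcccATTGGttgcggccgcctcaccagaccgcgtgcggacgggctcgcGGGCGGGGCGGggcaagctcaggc
SCD: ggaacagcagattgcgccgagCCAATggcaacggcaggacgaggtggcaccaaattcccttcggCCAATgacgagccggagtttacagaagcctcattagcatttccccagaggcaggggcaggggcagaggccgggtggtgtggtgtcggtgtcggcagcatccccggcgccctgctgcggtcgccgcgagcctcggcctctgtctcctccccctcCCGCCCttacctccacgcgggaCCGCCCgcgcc

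All 5 promoters held GC boxes, counted over the full 300-base window that also takes in the first 50 transcribed bases. HMGCS1 had 2, SREBF1 3, SREBF2 3, SCD 2 and INSIG1 6, some of them overlapping. Of all 34961 RefSeq promoters, 45.0% held at least 1 GC box, 26.8% at least 2, 15.8% at least 3 and 2.87% at least 6. CCAAT boxes stood in HMGCS1 (2), SCD (2), SREBF2 (1) and INSIG1 (1), against 34.6% of all promoters with at least 1, and none was found in the SREBF1 window. SREBF2 held the sterol element from 133 to 125 bases before its start site, in 1.13% of all promoters, and INSIG1 held an E-box 55 bases before its start, in 7.27%. The GC-box count did not order the genes by Sp1 peak: INSIG1, with the most boxes, had no Sp1 peak. A match is a string of letters and does not show that a factor was bound.

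Sp1 antibody 1 marked the start sites of 6 of the 8 genes and antibody 2 those of 2. With antibody 1 a summit lay no farther than 1 kb from an annotated start site of HMGCS1, SREBF1, SREBF2, SQLE, FDFT1 and SCD, against 37.5% of all protein-coding genes. For the wider window of the gene and 5 kb the count was also 6 of 8, against 44.5%. Antibody 2 had peaks at HMGCS1 and SREBF2, 2 of 8 on either window, against 24.2% at start sites and 31.1% for the wider window. Both antibodies together marked these 2 genes, against 21.0% of all genes at start sites. The antibody 2 share was thus near the background and the antibody 1 share above it, on 8 genes that were chosen by name. Every Sp1 peak of the 8 genes was at a start site, and no other protein-coding gene had a start site nearer to the summit.

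**Figure D1:**
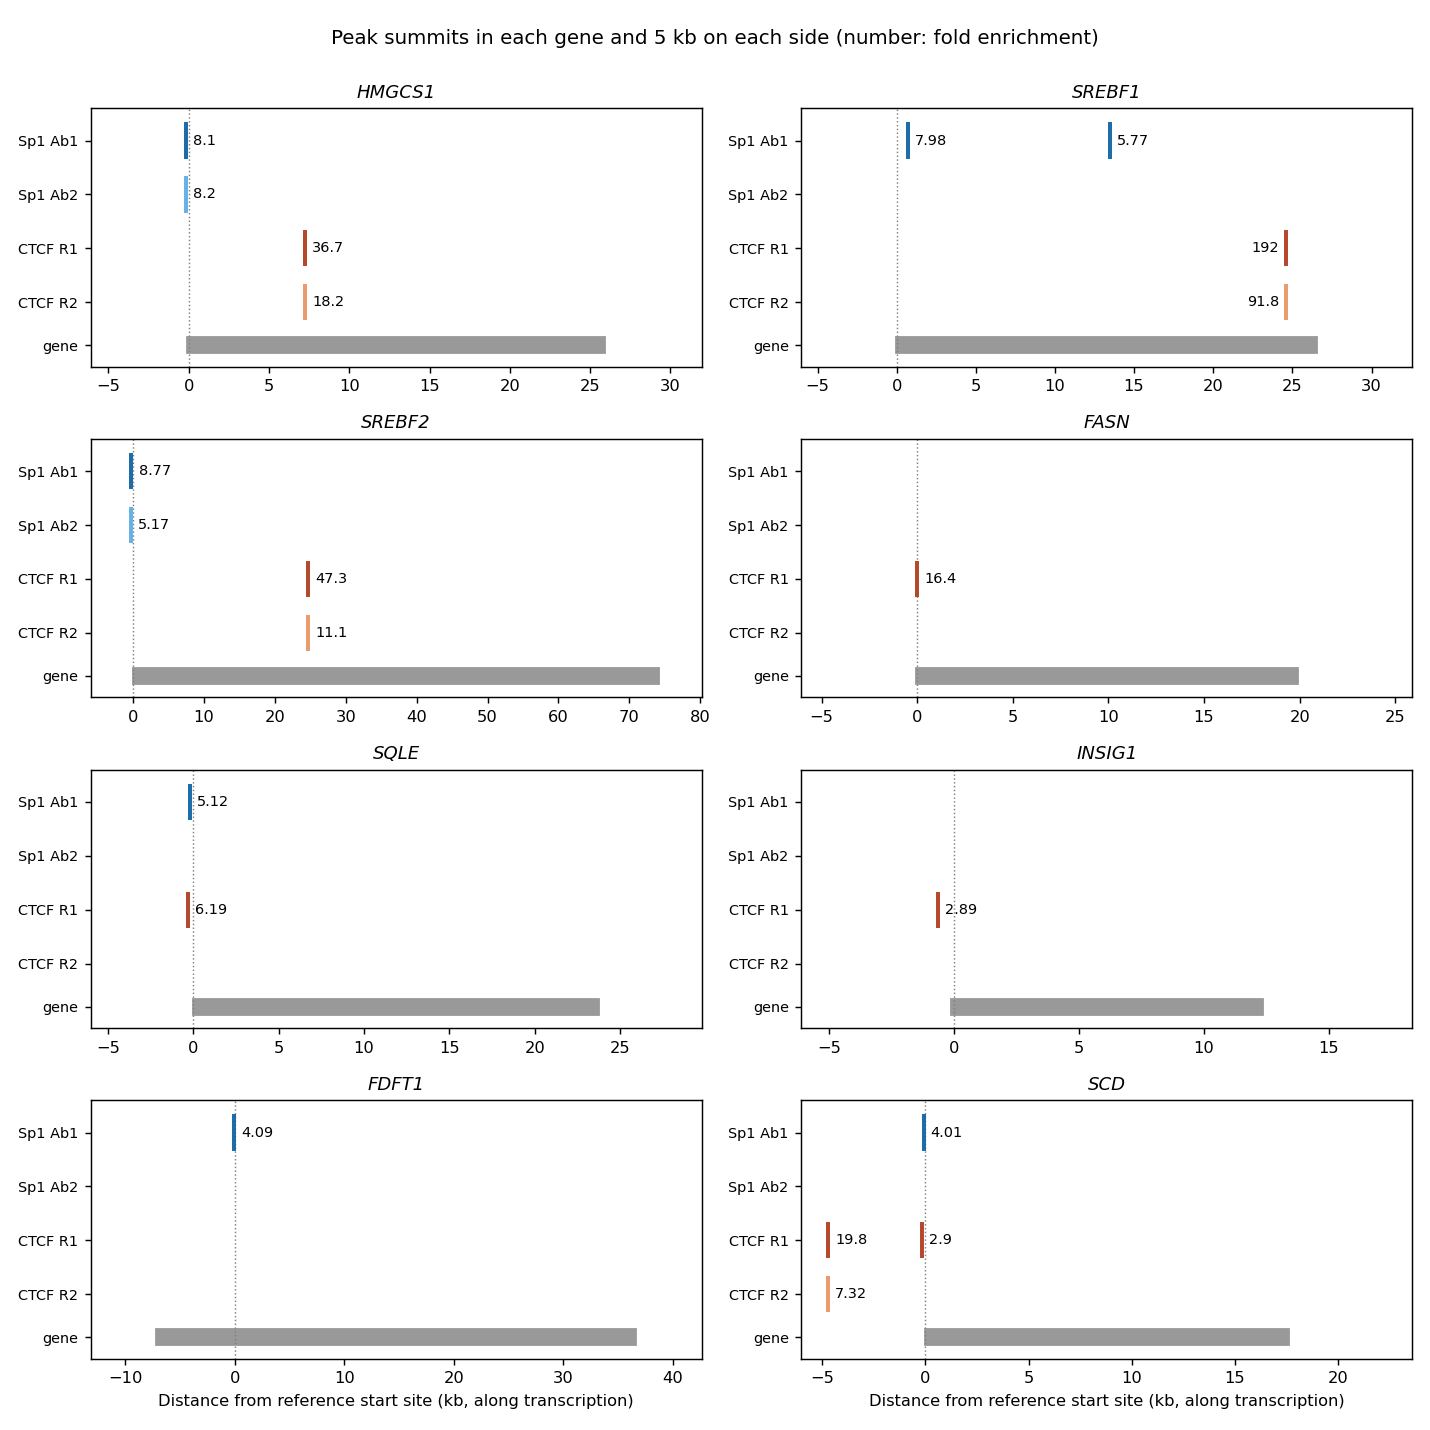
Summits of all 21 peaks along each gene, with the distance from the gene's reference start site in kb on the x axis, 1 row per library (Ab1 and Ab2, the Sp1 antibodies; R1 and R2, the CTCF replicates) and the gene as a grey bar. The number beside a mark is the fold enrichment. Sp1 marks sit at start sites, and the CTCF marks found in both replicates lie in the gene body of HMGCS1, SREBF1 and SREBF2 and upstream of SCD.

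HMGCS1, the synthase that makes HMG-CoA for the mevalonate pathway, had the closest match between the antibodies. Antibody 1 gave a peak at chr5:43313288-43313948 with a fold enrichment over control of 8.1 and a −log10 q of 19.7, its summit 59 bp before the nearest start site. Antibody 2 gave chr5:43313269-43313920, 8.2-fold with a −log10 q of 20.1, 46 bp before the start site. The summits were 13 bp apart, and the log2 ratio of antibody 2 to antibody 1 was 0.02, where the 4281 peaks shared by both lists had a median of −0.64 (25% to 75%, −1.1 to −0.03). Both summits fall inside the printed HMGCS1 run, with a GC box and a CCAAT box within 50 bp. By fold enrichment the peak exceeded 53.5% of the antibody 1 list and 65.2% of the antibody 2 list, so it was of middle rank in each.

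SREBF2 encodes SREBP-2, the main activator of cholesterol synthesis genes. Antibody 1 gave chr22:41832541-41833269, 8.77-fold with a −log10 q of 18.5, and antibody 2 gave chr22:41832640-41832938, 5.17-fold with a −log10 q of 6.05. The summits lay 251 and 372 bp before the start site, in an exon of the divergent noncoding gene SREBF2-AS1, and 121 bp from each other. The antibody 1 summit is thus 1 bp upstream of the first printed base, while its peak runs over the whole printed SREBF2 run with the sterol element. The log2 ratio of −0.76 was close to the median of shared peaks, with 42.9% of them lower. The antibody 1 peak exceeded 57.9% of its list and the antibody 2 peak 27.3%.

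SREBF1 encodes SREBP-1a and SREBP-1c from separate promoters, and antibody 1 gave a peak near each. The peak at chr17:17836060-17836462 was 7.98-fold with a −log10 q of 13.5, its summit in an intron, 709 bp downstream of the nearest start site. The other, at chr17:17823389-17823678, was 5.77-fold with a −log10 q of 8.38, and its summit lay in a coding exon 82 bp downstream of an internal coding start site, 13466 bp from the start of the gene. Antibody 2 had neither, and its nearest peak was 60.9 kb from any SREBF1 start site, in an intron of RAI1. The 3 GC boxes of the upstream run lie outside the first peak. A GC box stood within 50 bp of the internal summit and none within 50 bp of the other.

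The 3 remaining antibody 1 peaks were weak. SQLE, squalene epoxidase, had a peak at chr8:124998113-124998943 of 5.12-fold with a −log10 q of 8.55 and a CCAAT box within 50 bp of the summit. FDFT1, squalene synthase, had one at chr8:11802452-11802930 of 4.09-fold with a −log10 q of 3.6 and 2 GC boxes within 50 bp. SCD, the desaturase that makes oleate, had one at chr10:100346611-100347251 of 4.01-fold with a −log10 q of 3.97. Their summits lay 182, 28 and 83 bp before the nearest start site. Among the 6604 antibody 1 peaks at start sites, only 15.2% had a lower fold enrichment than the SQLE peak, 5.09% than that of FDFT1 and 4.36% than that of SCD. None of these peaks, nor the SREBF1 pair, had a counterpart in the antibody 2 list. Of the whole antibody 1 list 50.8% had none, and those peaks had a median of 6.3-fold against 10.2-fold for the shared ones.

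**Figure D2:**
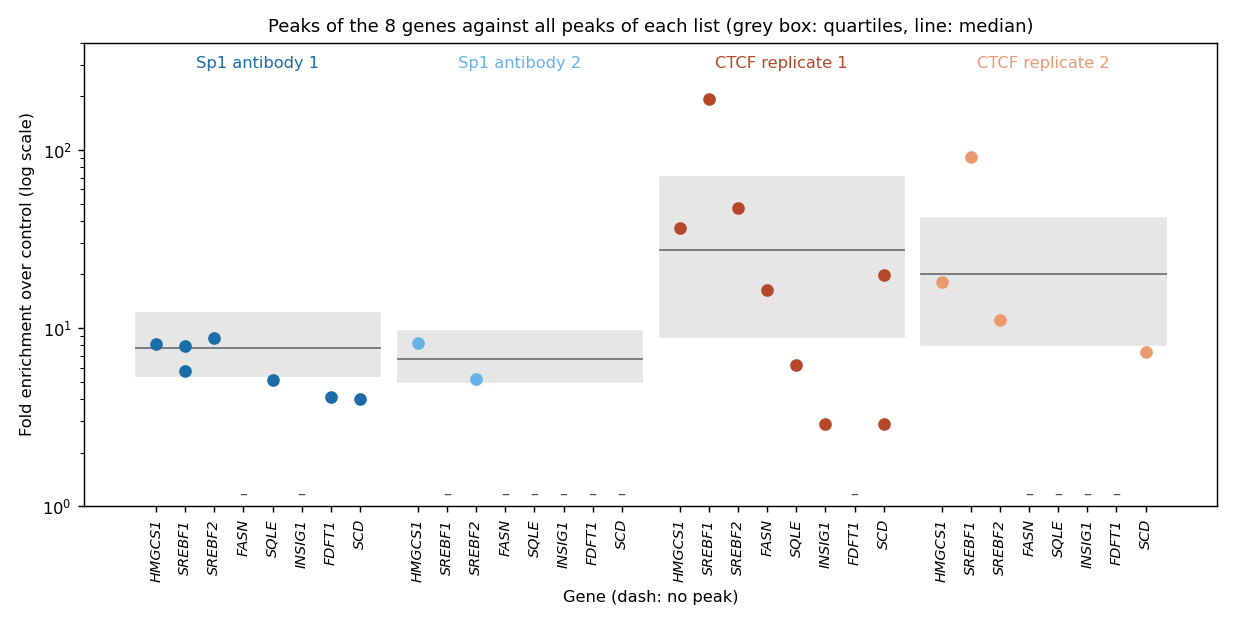
Fold enrichment over control (y axis, log scale) of every peak of the 8 genes in each of the 4 lists, 1 point per peak, with the list's median as a line and its 25% to 75% range as a grey box. Dashes stand for genes without a peak. In the antibody 1 list the points run from 4.01 to 8.77 around a list median of 7.72, and in both CTCF lists the SREBF1 point lies above the box.

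FASN and INSIG1 had no Sp1 peak with either antibody. FASN makes palmitate from malonyl-CoA. Its nearest Sp1 summits were 41.5 kb from the start site with antibody 1, in intergenic sequence at 11.6-fold, and 13.5 kb with antibody 2, in an untranslated exon of DUS1L at 51.4-fold. At INSIG1 the nearest antibody 1 summit was 1590 kb from the start site, in an untranslated exon of LMBR1, and the nearest antibody 2 summit 2820 kb away, in an intron of PTPRN2. Across all protein-coding genes the median distance was 19.9 kb for antibody 1 and 53.3 kb for antibody 2, and 1.19% and 0.946% of genes were farther from a peak than INSIG1. The lack of a listed peak is not evidence that Sp1 was absent, since the lists end near a q-value of 0.05 and give no depth.

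In 52.8% of all antibody 1 peaks and 36.7% of all antibody 2 peaks a GC box stood within 50 bp of the summit. Among the peaks of the 8 genes these were 3 of 7 and 2 of 2. Within 100 bp the antibody 1 count rose to 5 of 7, against 67.9% of the list. The longer form GGGGCGGGG, found in 18.8% and 11.3% of the lists, stood within 50 bp of none of them. A CCAAT box stood within 50 bp of 20.6% of antibody 1 summits and 20.0% of antibody 2 summits. Among the 8 genes it did so at HMGCS1 with both antibodies and at SQLE with antibody 1.

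CTCF gave a different layout, with 4 sites found in both replicates, none of them within the 1 kb limit of a start site, although the one in SREBF1 missed it narrowly. Replicate 1 had a peak in the window of 7 of the 8 genes and replicate 2 in that of 4, against 68.3% and 61.8% of all protein-coding genes. Both replicates marked HMGCS1, SREBF1, SREBF2 and SCD, 4 of 8 against 61.1%. The core of each shared site is printed because it holds the letters closest to the CTCF recognition sequence. Each run has 30 bases with the best match to the 12-base CTCF core in capitals, on the strand of the core: chr5:43306130-43306159 (HMGCS1, minus strand), chr17:17812398-17812427 (SREBF1, plus), chr22:41857769-41857798 (SREBF2, minus) and chr10:100342530-100342559 (SCD, plus), all on hg38.
HMGCS1: ttcttttgtCCACCAGAGGGAgtgagcctt
SREBF1: cccgatcggCCACCAGAGGTCagcaccatc
SREBF2: tccactcaaACACCAGGGGGCacatcagag
SCD: agatgtctgCCAACAGAGGGAggtgtgggg

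The cores of HMGCS1, SREBF1 and SREBF2 differed from the CTCF core at 1 position and that of SCD at 2. Within 50 bp of the summit 50.8% of the replicate 1 list and 54.3% of the replicate 2 list held the core with at most 1 mismatch. With at most 2 mismatches the shares were 80.2% and 81.8%, against 15.4% and 13.2% around Sp1 summits. An exact core was found at none of the 4 sites, and in 15.8% and 17.8% of the lists.

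SREBF1 carried the strongest CTCF site of the 8 genes. It reached 192-fold in replicate 1, at chr17:17811776-17813007, and 91.8-fold in replicate 2, at chr17:17812057-17812785, or 142 ± 70.6 (SD, n = 2). The −log10 q was 1320 and 835. It exceeded 98.1% and 96.6% of the respective lists. The summit lies in an untranslated exon, 24612 bp from the start of the gene. The start of a short SREBF1 transcript lies 1052 bp from the replicate 1 summit and 1048 bp from that of replicate 2, just past the 1 kb limit. HMGCS1 had an intronic site 7355 bp into the gene, 36.7-fold at chr5:43305873-43306491 and 18.2-fold at chr5:43305991-43306408, or 27.4 ± 13.1 (SD, n = 2). SREBF2 had one 24688 bp into the gene, also intronic, 47.3-fold at chr22:41857485-41858226 and 11.1-fold at chr22:41857554-41858065, or 29.2 ± 25.6 (SD, n = 2). The SCD site lay 4693 bp before the start site, just inside the 5 kb limit, and was 19.8-fold at chr10:100342319-100342800 and 7.32-fold at chr10:100342285-100342729, or 13.5 ± 8.8 (SD, n = 2). A stronger CTCF peak upstream of SCD, 146-fold and 29.5-fold, was 8.62 kb out and so was not counted.

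At all 4 sites replicate 2 was lower, as it was at 97.2% of the 34125 shared CTCF peaks. The log2 ratio of replicate 2 to replicate 1 was −1.01 at HMGCS1, −1.06 at SREBF1, −1.43 at SCD and −2.1 at SREBF2, where the median over shared peaks was −0.89 (25% to 75%, −1.17 to −0.62). Of the shared peaks 37.6%, 33.3%, 11.6% and 0.744% had a lower ratio, in that order. By fold enrichment the ratio at SREBF2 was thus among the lowest of the shared peaks. With −log10 q in place of fold enrichment it lay closer to the other sites. That log2 ratio was −1.66 at SREBF2, −1.43 at HMGCS1, −1.38 at SCD and −0.66 at SREBF1, with a median of −1.01 over shared peaks. Summit positions moved by 4 to 10 bp, close to the median of 8 bp.

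**Figure D3:**
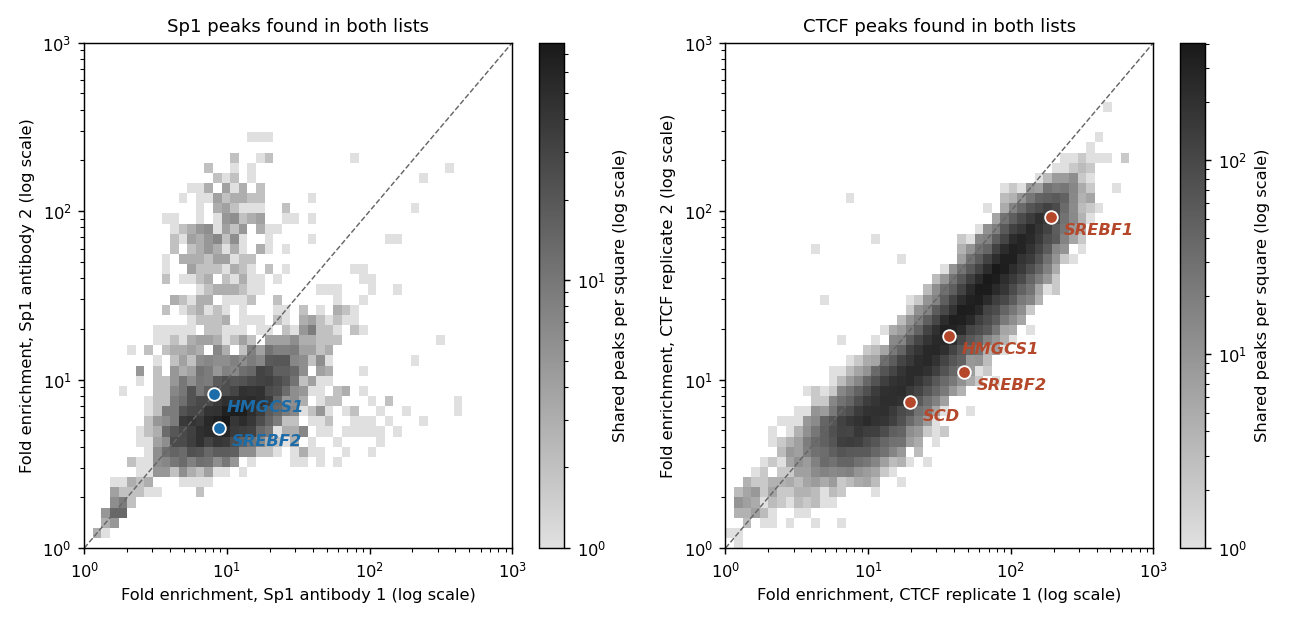
Fold enrichment of peaks found in both lists of a pair, antibody 1 against antibody 2 on the left and CTCF replicate 1 against replicate 2 on the right, both axes on a log scale. Squares are shaded by the number of shared peaks, points are the 8 genes' sites and the dashed line marks equal values. The CTCF sites lie below the line, with SREBF2 farthest from it, and HMGCS1 lies on the line for Sp1.

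CTCF replicate 1 also had weaker peaks at 4 start sites that replicate 2 lacked. The FASN peak at chr17:82098146-82098346 was 16.4-fold with a −log10 q of 72.3, its summit in an untranslated exon 10 bp from the start site. The SQLE peak at chr8:124998054-124998292 was 6.19-fold with a −log10 q of 16.7. The INSIG1 peak at chr7:155297226-155297438 was 2.89-fold with a −log10 q of 1.54, in an exon of the divergent noncoding gene INSIG1-DT. The SCD peak at chr10:100346984-100347191 was 2.9-fold with a −log10 q of 1.71. The last pair stood close to the threshold of the list. At start sites the replicate 1 count was 4 of 8 against 32.5% of all genes, and the replicate 2 count 0 of 8 against 24.9%. Peaks of both replicates stood at the start sites of 0 of the 8 genes, against 24.3% of all. Peaks of replicate 1 without replicate 2 stood at 4 of 8 against 10.6%. None of the 4 held a CTCF core with at most 2 mismatches within 50 bp of the summit, and the rest of each peak was not searched. By the same rule 45.9% of the 2033 replicate 1 start-site peaks without replicate 2 held one, and 74.4% of the 5020 shared start-site peaks. The 2033 had a median of 5.21-fold, so FASN was above it, SQLE near it, and INSIG1 and SCD at the low end of the list. At SQLE and SCD the CTCF summit lay 89 and 75 bp from the antibody 1 Sp1 summit. FDFT1 had no CTCF peak in its window, and the nearest was 6.53 kb past the gene in an intron of CTSB, 6.86-fold and 6.06-fold.

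**Figure D4:**
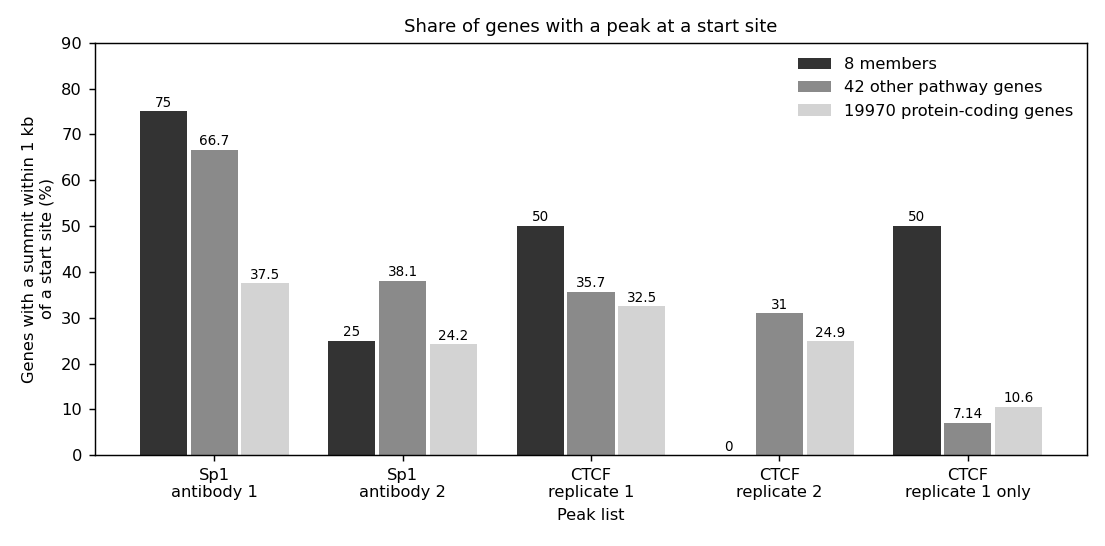
Share of genes (y axis, %) whose start site had a summit no farther than 1 kb away, for the 8 genes, 42 other genes of lipid synthesis and regulation and all 19970 protein-coding genes, in each list and for CTCF replicate 1 peaks without replicate 2. For Sp1 antibody 1 both sets of lipid genes stand above all genes, with 6 of 8 and 66.7% against 37.5%, and for CTCF replicate 2 the 8 genes are at 0.

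The nearest shared CTCF peaks on both sides of the reference start site enclosed 34.9 kb at SREBF2, 48.0 kb at SREBF1, 80.3 kb at FDFT1, 80.9 kb at HMGCS1, 91.4 kb at SCD, 117 kb at FASN, 151 kb at SQLE and 154 kb at INSIG1. The median of 86.2 kb was close to the 83.6 kb over 19009 genes (25% to 75%, 40.4 to 159 kb). For HMGCS1, SREBF1 and SREBF2 the downstream peak was the one inside the gene.

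The 42 other genes of the pathway list were marked by Sp1 antibody 1 at a similar share. With antibody 1, 28 of 42 (66.7%) had a summit at a start site and 30 (71.4%) in the wider window, with antibody 2 16 (38.1%) and 21 (50.0%), and with both at a start site 14 (33.3%). At start sites the shares of all protein-coding genes were 37.5% with antibody 1, 24.2% with antibody 2 and 21.0% with both. By role, antibody 1 marked 17 of 19 other sterol synthesis enzymes in the wider window, 4 of 9 genes of sterol sensing, uptake and transport and 9 of 14 of fatty acid and glycerolipid synthesis, against 44.5% of all protein-coding genes. Antibody 2 marked 11, 3 and 7, against 31.1%. The genes of sensing, uptake and transport were thus at the background share with both antibodies. The median of each gene's strongest antibody 1 start-site peak was 10.5-fold in these genes, 6.55-fold in the 6 marked genes described above and 8.85-fold over all 7481 marked genes. Among the strongest in their roles were CYP51A1 (28.6-fold with antibody 1, 13.1-fold with antibody 2) and PMVK (26.2 and 9.42) among the sterol enzymes, ABCA1 (12.6, no antibody 2 peak) in sensing and transport, and ACLY (19.0 and 10.5) and ACSS2 (13.7 and 7.84) in fatty acid synthesis. Those without an Sp1 peak in the wider window included LBR, SCAP, INSIG2, NPC1, ACACB, ELOVL5, ELOVL6, ME1 and MID1IP1. CTCF replicate 1 and 2 marked 29 (69.0%) and 26 (61.9%) of the 42 in the wider window, against 68.3% and 61.8% of all genes, the background share. Replicate 1 without replicate 2 stood at the start sites of 3 (7.14%), against 10.6% of all genes. The IgG list touched 1 of the 42 (2.38%) in the wider window, against 0.0801% of all genes.

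**Figure D5:**
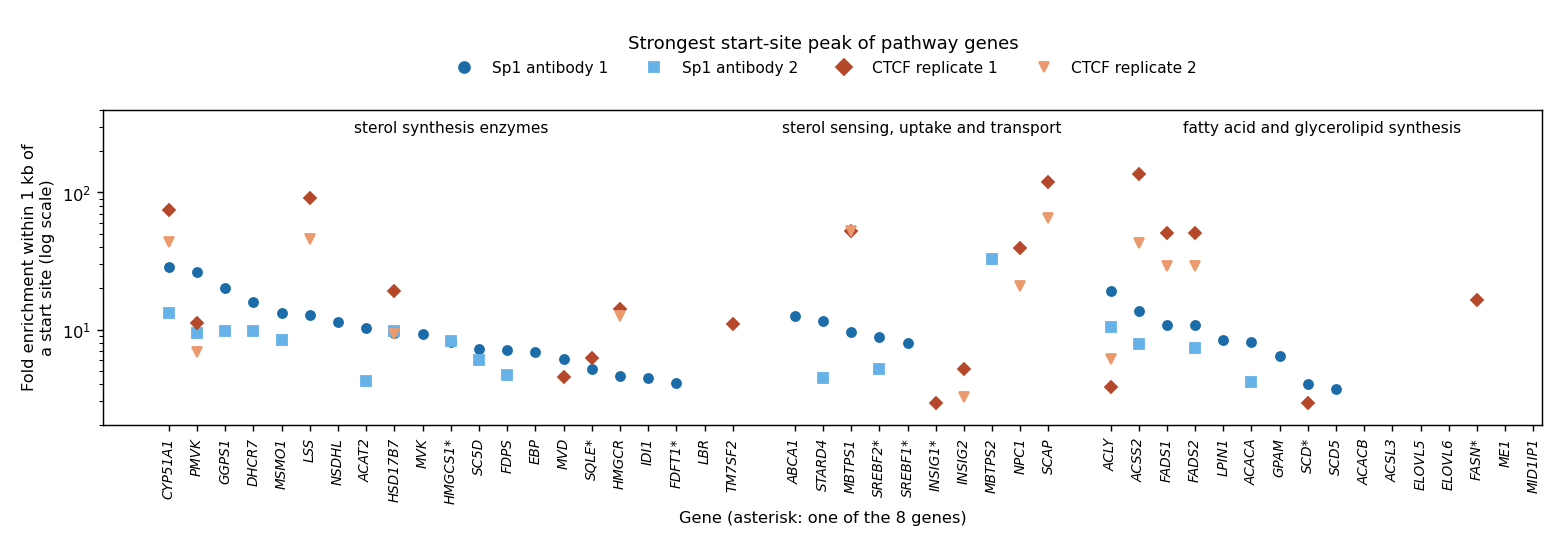
Fold enrichment (y axis, log scale) of the strongest peak within 1 kb of a start site for genes of the pathway list, 1 column per gene, grouped by role and ordered by Sp1 antibody 1. Colours and shapes give the list, and an asterisk marks the 8 genes. The 6 of them with an antibody 1 peak lie from 4.01 to 8.77, below CYP51A1 and PMVK.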

How the data were processed

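ChIP-seq was measured in 8 libraries, grouped by the sample labels, and 5 peak lists were used. The submitters' processing notes name cutadapt 2.6 for adapter trimming, Bowtie2 2.4.5 and SAMtools 1.15.1 for alignment to hg38 and MACS2 2.2.7.1 for peak calling, and each list belongs to 1 library. The versions of Bowtie2 and SAMtools in the study's methods differ. Those methods describe merged controls and no local background for a reproducibility step, and whether this holds for these lists is not stated in the sources used here. The fold enrichment deposited by the authors is a linear ratio over control, and the deposited −log10 p and −log10 q belong to the summit. The deposited score was not used in a result. All lists end near a q-value of 0.05, and fold enrichment depends on the control, depth and threshold, so values compare best within a list.

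Summits were placed on GENCODE release 44 of the same build, with 0 peaks outside its contigs. Peaks sharing at least 1 bp were shared. Motifs were searched on both strands within 50 bp of summits. Promoter windows were from RefSeq. The CTCF core was a 12-base IUPAC consensus. The text names the 8 genes, the 2 pathway genes per role with the strongest antibody 1 start-site peak and those with no Sp1 peak. Some genes under this rule are counted but not reported by name here. The genes, lists and rules were chosen with earlier results of these data known. No test was run, and the counting steps were tested on simulated data. Python 3.11.15, pandas 2.3.3, numpy 2.4.6 and pysam 0.24.0 were used. Alternatives changed the window, q threshold, overlap, ranking and motif.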

Additional observations from a re-analysis of the deposited data

How the results depend on the processing

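Of the counts for the 8 genes, the pathway list and the motifs, 81 values under other settings were within 1.5 times the main count. Another 13 moved further, and the cause was not tested beyond what each setting removes. The 81 include IgG counts of 0 for the 8 genes throughout, and a setting without peaks overlapping IgG that removed none. They also include a fall for antibody 1 from 6 to 4 of the 8 genes at a −log10 q of at least 5. FDFT1 and SCD dropped out there, and the share of all genes at that cut was not computed. With summits limited to 1 kb of a start site, CTCF replicate 1 marked 4 of the 8 genes and replicate 2 marked 0, and of the 42 other pathway genes 15, 13 and, for IgG, 0. The Sp1 sites shared by both antibodies fell from 2 to 1 with summits within 100 bp and to 1 with a reciprocal overlap of 50%. With each CTCF replicate left out in turn, the CTCF sites ranged from 4 to 8. Antibody 1 peaks with a GC box numbered 5 within 100 bp and 0 for the longer box, antibody 2 peaks 0 for the longer box, and CTCF peaks with a core within 1 mismatch 3 and 3. With −log10 q in place of fold enrichment, the position of SREBF2 in the CTCF replicate 2 list went from 33.5% to 48.1%, and its log2 ratio of the Sp1 antibodies from −0.76 to −1.61. The median of that ratio over all shared Sp1 peaks also went from −0.64 to −1.18. No test was run, paired or unpaired. The numbers of the CTCF libraries recur only in inputs, for which no list was used. Depth is unknown from the lists, so an unlisted peak was only not called at this threshold. Whether the protein was absent there was not tested.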
